A study of Mus musculus with 18 samples.

Results

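The genes described here are 10 genes of triglyceride breakdown and of the lipid droplet surface, namely Pnpla2, Lipe, Mgll, Lpl, Plin1, Plin2, Plin4, Plin5, G0s2 and Cidec. They were chosen by name, and all 10 were found among the 21899 genes of the expression table. RNA had been sequenced from liver, epididymal white adipose tissue (eWAT, labelled only WAT by the submitters) and muscle of wild-type male C57BL/6 mice aged 18 weeks. Control (CON) mice received chow and tap water, and high-salt diet (HSD) mice received salt-enriched chow with saline to drink for 12 weeks. Each tissue had 3 CON and 3 HSD libraries, which gave 18 libraries from 8 mice by the mouse numbers in the library names, and 4 of these mice gave all 3 tissues. Levels are FPKM, that is, fragment numbers scaled to the exon length of the gene and to library size. Levels of different genes are thus set side by side per length, and their order depends on the lengths used.

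Adipocytes keep triglyceride in a droplet that is coated by perilipins. Adipose triglyceride lipase (Pnpla2) removes the first fatty acid, hormone-sensitive lipase (Lipe) the next and monoglyceride lipase (Mgll) the last. G0s2 is a protein inhibitor of Pnpla2, while Plin1 holds back the Pnpla2 coactivator Abhd5 until catecholamine signalling through protein kinase A phosphorylates it. Plin2 coats droplets in most cells, Plin4 small droplets of fat and muscle, and Plin5 droplets of oxidative tissues next to mitochondria. Cidec fuses droplets into the large unilocular droplet of white fat. Lipoprotein lipase (Lpl) is secreted and releases fatty acids from circulating lipoproteins at the capillary wall for uptake.

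The promoter sequences shown here are those of Pnpla2 and its inhibitor G0s2, whose ratio is set out by library later, and of Plin2 and Plin5, the perilipins with the largest shares in liver. Each is the 250 bases before the transcription start in RefSeq on GRCm38.p6, written 5′ to 3′ on the strand of the gene. Capitals mark matches on either strand to AGGTCA, the hexamer bound by many nuclear receptors, or to the CCAAT box, and in the reverse direction these read TGACCT and ATTGG.
Pnpla2, chr7:141454938-141455187, plus strand: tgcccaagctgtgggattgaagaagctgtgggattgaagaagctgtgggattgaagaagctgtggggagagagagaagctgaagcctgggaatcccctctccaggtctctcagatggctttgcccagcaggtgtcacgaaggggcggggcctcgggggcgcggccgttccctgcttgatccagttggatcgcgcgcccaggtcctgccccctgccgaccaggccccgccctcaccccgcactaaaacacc
G0s2, chr1:193273189-193273438, minus strand: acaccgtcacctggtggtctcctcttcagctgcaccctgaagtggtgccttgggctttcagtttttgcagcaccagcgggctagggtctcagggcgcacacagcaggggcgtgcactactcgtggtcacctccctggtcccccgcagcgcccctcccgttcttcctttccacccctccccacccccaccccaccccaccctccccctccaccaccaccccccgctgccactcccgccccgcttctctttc
Plin2, chr4:86670060-86670309, minus strand: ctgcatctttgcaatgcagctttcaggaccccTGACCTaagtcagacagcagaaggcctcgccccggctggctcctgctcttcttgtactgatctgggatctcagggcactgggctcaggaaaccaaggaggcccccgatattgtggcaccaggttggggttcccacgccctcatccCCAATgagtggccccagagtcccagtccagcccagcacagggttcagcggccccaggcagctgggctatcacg
Plin5, chr17:56117549-56117798, minus strand: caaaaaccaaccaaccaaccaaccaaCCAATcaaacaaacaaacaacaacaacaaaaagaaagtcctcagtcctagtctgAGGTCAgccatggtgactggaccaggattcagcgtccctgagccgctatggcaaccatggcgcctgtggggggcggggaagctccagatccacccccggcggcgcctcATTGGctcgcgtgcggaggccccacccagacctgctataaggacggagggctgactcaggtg

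Of the 10 genes, 9 had an entry in the RefSeq table, with 13 start sites in all, and Lpl had none. AGGTCA occurred on either strand in 2 of these 13 windows, those of Plin2 and Plin5 printed above, and in 14% of all 32851 windows of the same length. CCAAT was present in 3 member windows, those of Plin2, Plin4 and Plin5, and in 33.8% of all windows. The forkhead core TGTTTAC was found in 2 member windows, of Lipe and Mgll, against 3.17% of all windows, and the E-box CACGTG in 2 windows, again of Lipe and Mgll, against 6.02%. No match overlapped another. None of the 4 motifs was present in the Pnpla2 and G0s2 windows. Such counts of letters describe the windows only.

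Assigned depth ran from 7624471 to 16626697 fragments per library. The labelled tissues were checked against fixed marker genes, and all 12 hepatocyte markers in the 6 liver libraries, all 12 adipocyte markers in the 6 eWAT libraries and all 12 muscle fibre markers in the 6 muscle libraries reached 1 FPKM. Some libraries stood apart. HSD eWAT library HS3W held all 20 epididymal epithelium markers at a summed level of 29380 FPKM, against 1.41 to 16.1 FPKM in the other 5 eWAT libraries, and its adipocyte marker sum was 9100 FPKM against 24450 to 29630. Male germ cell markers summed to 628 FPKM in HS2W, 316 in HS3W and 49.85 in HS5W, against 9.15 to 61.5 in CON eWAT. HS2W stays in the fits without HS3W, and the part of these transcripts was not tested. CON liver library CON16L held all 12 muscle fibre markers at a sum of 5024 FPKM, against 2.52 to 6.57 in the other 5 livers. Mitochondrially encoded transcripts took 15.4% to 60.9% of the fragments of a liver library, and 3.52% to 5.12% in eWAT. Hepatocyte markers summed to 132 to 371 FPKM in CON eWAT and 9.25 to 18.0 in HSD eWAT. Diet comparisons that turn on HS3W or CON16L are given with and without them.

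In control mice, these genes were mostly genes of fat. Compared with liver, 8 of the 10 were higher in eWAT and Plin5 was lower, and compared with muscle, 9 were higher and Plin5 was again lower (limma, adjusted p < 0.05 and at least 2-fold). With so distant tissues such calls are common, since 69.4% of the 12637 genes tested were called between eWAT and liver, 54.9% between eWAT and muscle and 50.1% between muscle and liver. The median log2 difference over all genes was itself 1.36 between eWAT and liver, 0.93 between eWAT and muscle and 0.52 between muscle and liver, so the log2 values that follow have to be read against it. In bulk tissue, fewer cells of a type and less RNA per cell cannot be told apart.

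**Figure D1:**
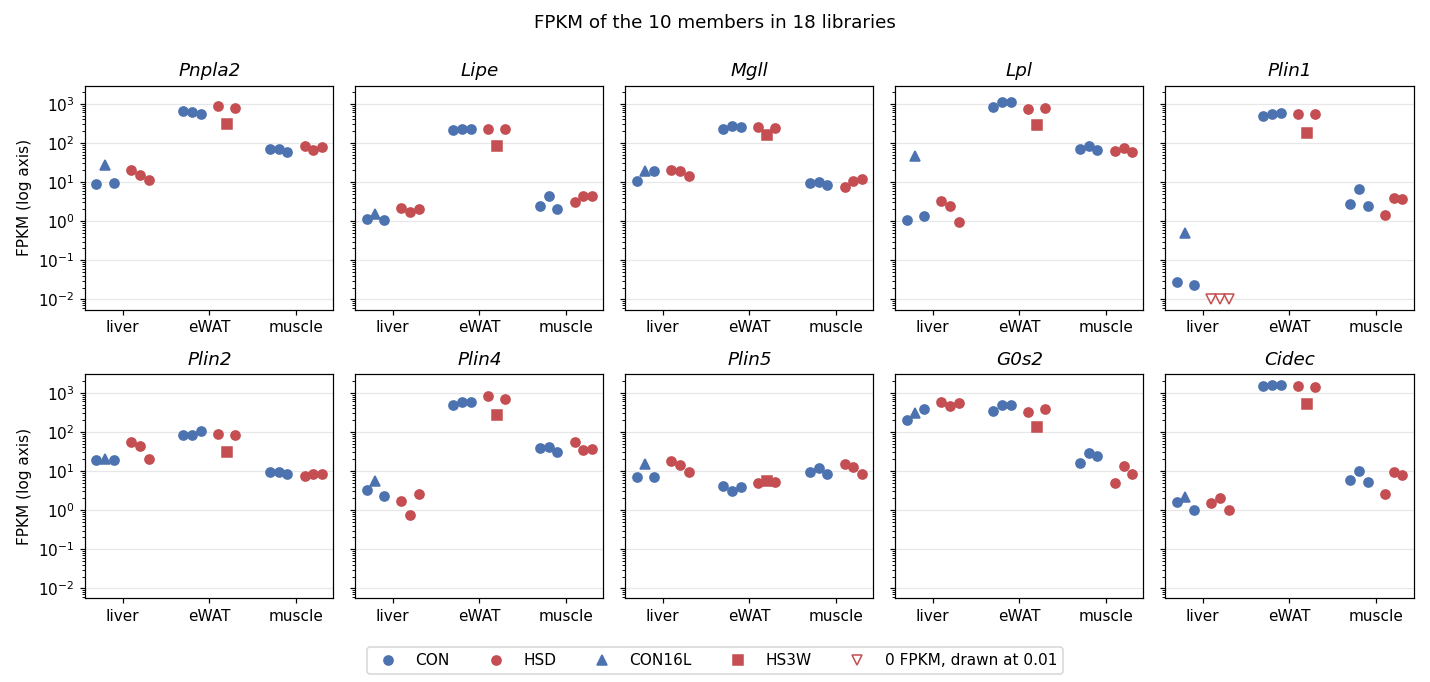
FPKM on a log axis of each gene in the 18 libraries, by tissue, with CON in blue and HSD in red. CON16L is drawn as a triangle, HS3W as a square, and the 3 HSD livers in which Plin1 was at 0 FPKM as open triangles at 0.01. Plin1 and Cidec span the widest range between tissues, Plin5 the narrowest, and the G0s2 values of liver and eWAT overlap.

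The droplet coat genes Plin1 and Cidec separated fat from the other tissues most sharply. Plin1 stood at 501, 561 and 584 FPKM in the CON eWAT libraries, at 2.73, 6.56 and 2.39 in CON muscle and at 0.028, 0.50 and 0.024 in CON liver, where the middle value is that of CON16L. The log2 difference between eWAT and liver was 9.72 (adjusted p = 5.62e-08), and Plin1 had 27 fragments in CON16L and 1 in each of the other CON livers. In the 3 HSD livers it had 0 fragments, which allows up to 3 fragments, or 0.062 to 0.075 FPKM by counting error alone, so no fold is given for the diet in liver. Cidec, the highest of the 10 genes in fat by FPKM, read 1476, 1593 and 1610 FPKM in CON eWAT against 5.77, 10.3 and 5.15 in CON muscle and 1.63, 2.18 and 1.00 in CON liver. Both genes were called in all 3 tissue comparisons. On mm10, Plin1 lies on chromosome 7 at 79720218 to 79732903 and Cidec on chromosome 6 at 113424634 to 113435760, both on the minus strand.

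Among the lipases, the balance of the levels changed with the tissue. Pnpla2 was 657, 606 and 552 FPKM in CON eWAT, 69.3, 70.4 and 58.7 in CON muscle and 8.90, 27.7 and 9.27 in CON liver. Lipe was 209, 231 and 226 FPKM in CON eWAT but only 2.46, 4.48 and 2.08 in CON muscle and 1.11, 1.52 and 1.06 in CON liver. Pnpla2 FPKM was thus 2.74 ± 0.37 (SD, n = 3) times that of Lipe in CON eWAT and 24.0 ± 7.2 times that of Lipe in CON muscle. The muscle against liver difference of Lipe, 0.97 on the log2 scale with adjusted p = 0.0056, did not reach 2-fold. Mgll was 254 ± 22 FPKM in CON eWAT, 15.9 ± 4.7 in CON liver and 9.41 ± 0.80 in CON muscle (SD, n = 3 each), and its muscle against liver difference of -0.69 was under 2-fold as well (adjusted p = 0.029).

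Lpl took part in the muscle and fat pattern, with 847, 1132 and 1080 FPKM in CON eWAT and 68.1, 82.3 and 64.5 in CON muscle. In CON liver it read 1.08 in CON14L, 46.8 in CON16L and 1.39 in CON72L. The muscle against liver difference was 3.79 (adjusted p = 0.011) with CON16L and 5.38 (adjusted p = 6.07e-08) without it. Of the 10 genes, all but G0s2 were highest in CON16L among the CON livers. This library held the muscle fibre transcripts. In it 7 of the 12 adipocyte markers reached 1 FPKM, against 3 to 5 in the other livers, and these markers summed to 1847 FPKM against 380 to 1673. Among them, Adipoq was 1.31 FPKM in CON16L against 0 to 0.079 in the other livers, and Cfd 16.0 against 0.25 to 1.78. Fabp4 was 12.0 against 0.91 to 1.53, and Thrsp 91.2 against 8.15 to 151. CON16L also had the lowest mitochondrial share of the CON livers, 25.7% against 37.9% and 60.9%. The part of each of these in the values was not tested.

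The other pair of genes, G0s2 and Plin5, did not follow fat. G0s2 was 338, 480 and 494 FPKM in CON eWAT and 205, 303 and 389 in CON liver, and these groups overlapped, with a log2 difference of 0.57 (95% interval -0.21 to 1.36, adjusted p = 0.15). Scaling all libraries by median ratios turned that difference to -1.09 (adjusted p = 0.018), and leaving out the mitochondrially encoded genes turned it to -0.54, so the order of liver and eWAT depended on the scaling. Muscle G0s2, at 16.0, 28.9 and 24.5 FPKM, was lower than liver by -3.65 on the log2 scale (adjusted p = 1.52e-05). Plin5 ran the other way from the rest, with 4.09, 3.04 and 3.89 FPKM in CON eWAT, 9.15, 11.9 and 8.31 in CON muscle and 6.97, 15.4 and 7.12 in CON liver. Its eWAT against liver difference was -1.22 (adjusted p = 0.0034) and fell below 2-fold, to -0.86, without CON16L. Muscle and liver Plin5 levels did not differ beyond their spread (0.07, 95% interval -0.59 to 0.73).

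The make-up of the droplet coat differed between tissues. Taking Plin1 to Plin5 together, with Plin3 added to complete the family, Plin1 gave 45.4 ± 0.52% and Plin4 45.0 ± 1.1% of the summed FPKM in CON eWAT (SD, n = 3). In CON liver Plin2 gave 52.0 ± 8.9% and Plin5 24.9 ± 6.4%, where the Plin2 share was 42.0% in CON16L and 54.7% and 59.2% in the others, and the Plin5 share 32.2% in CON16L and 20.6% and 21.9% in the others. In CON muscle Plin4 gave 53.9 ± 2.5% with Plin5 and Plin2 at 14.6 ± 0.91% and 13.9 ± 1.3%. These are shares of RNA, not of protein.

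**Figure D2:**
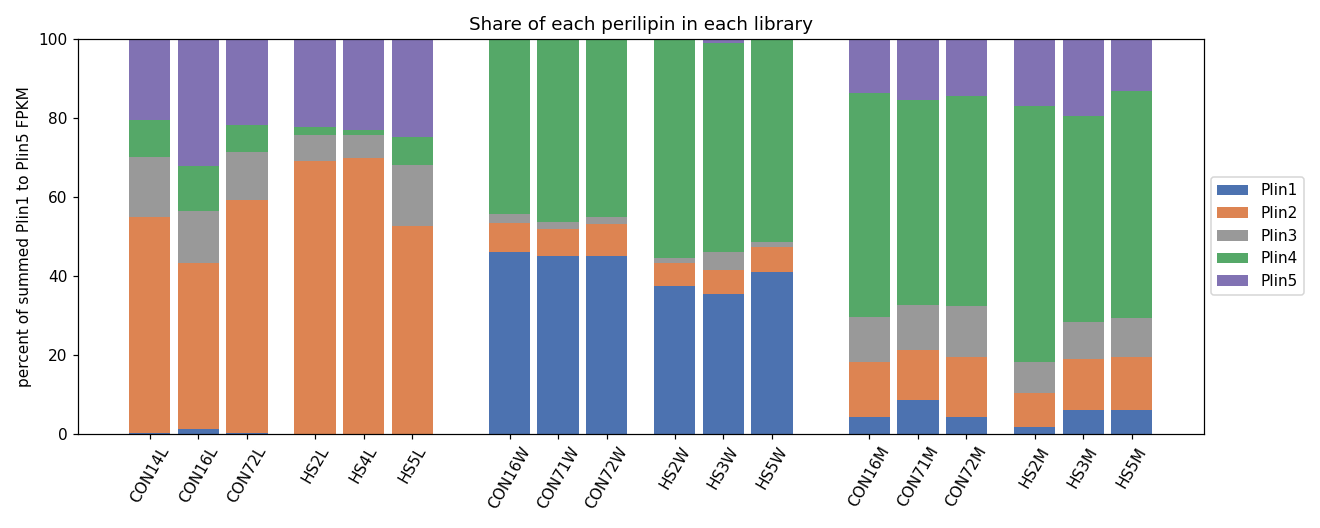
Share of each perilipin in the summed Plin1 to Plin5 FPKM of each of the 18 libraries, as stacked bars from 0 to 100%, with CON libraries left of HSD libraries in each tissue. Plin2 leads in liver, Plin1 and Plin4 in eWAT and Plin4 in muscle, and in eWAT the Plin4 share is 44.0% to 46.2% in CON and 51.0% to 55.2% in HSD.

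The diet was then compared within each tissue. None of the 10 genes was called in any tissue with all 6 libraries (limma on log2(FPKM + 0.5)). At an unadjusted p under 0.05 stood 1 of 9 tested genes in liver, 1 of 10 in eWAT and 1 of 10 in muscle. Called genes were few everywhere, at 0% of 10317 genes tested in liver, 0% of 13740 in eWAT and 0.323% of 10834 in muscle, where 592, 2298 and 1761 genes had an unadjusted p under 0.05. limma voom on recovered fragments also called 0 genes in liver, with 541 at an unadjusted p under 0.05, and 0 in eWAT, with 2188. In muscle it called 68 of 10822 genes, among them 1 of the 10, G0s2.

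**Figure D3:**
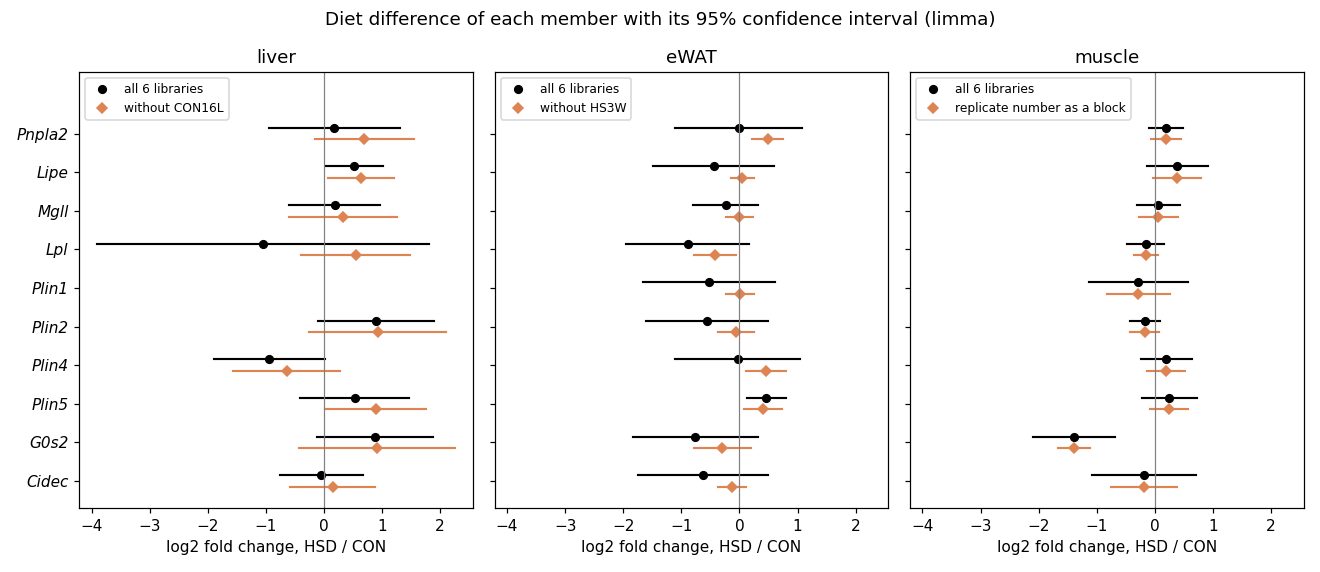
Log2 fold change of HSD over CON for each gene with its 95% confidence interval from limma, for liver, eWAT and muscle. Black circles use all 6 libraries of a tissue, and orange diamonds leave out CON16L in liver, leave out HS3W in eWAT and block on the replicate number in muscle. Plin1 was too low to be tested in liver, and G0s2 in muscle lies furthest from 0 with an interval of -2.10 to -0.69.

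In muscle, the inhibitor gene G0s2 showed the largest difference of the 10. It read 16.0, 28.9 and 24.5 FPKM in the CON libraries and 4.92, 13.1 and 8.61 in the HSD libraries, and every HSD value lay below every CON value. The mean was 23.1 ± 6.5 FPKM in CON and 8.87 ± 4.1 in HSD (SD, n = 3), from 185 to 298 fragments in a CON library and 57 to 148 in an HSD library. limma gave a log2 fold change of -1.39 (95% interval -2.10 to -0.69, unadjusted p = 0.0014) with an adjusted p of 0.079, so G0s2 was not called in the fit without a block. With the replicate number as a block, the adjusted p was 0.0027 and G0s2 was downregulated past the threshold, in a fit that called 0.498% of genes. Same-numbered libraries came from different mice, so this block rests on the label numbers and a correlation of deviations only. limma voom on recovered fragments gave -1.45 with adjusted p = 0.049, and over all alternatives the adjusted p ranged from 0.0027 to 0.50. Adipoq, a marker of fat cells, stood at 6.94, 16.5 and 7.25 FPKM in CON muscle and at 3.75, 17.6 and 13.7 in HSD muscle. Within each group the libraries had the same order for Adipoq and for G0s2, and the part of fat cells in the G0s2 difference was not tested. The 12 adipocyte markers summed to 540 to 785 FPKM in CON muscle and 468 to 752 in HSD muscle. Among them, Cfd was 55.7 to 122 FPKM in CON and 35.8 to 170 in HSD muscle, and Fabp4 37.2 to 54.3 and 32.8 to 79.5. Thrsp was 8.89 to 13.2 in CON and 3.98 to 10.5 in HSD muscle. Macrophage markers summed to 31.7 to 49.9 FPKM in CON and 24.0 to 25.8 in HSD muscle, and their part in the G0s2 difference was not tested.

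The other 9 genes had adjusted p-values of at least 0.45 in muscle. Plin2 was 9.35, 9.59 and 8.60 FPKM in CON and 7.47, 8.51 and 8.31 in HSD, groups that did not overlap, with a log2 fold change of only -0.17 (95% interval -0.43 to 0.08). Libraries lower in HSD without overlap were seen for G0s2 and Plin2, 2 of the 10 genes, against 15.6% of all genes tested, and none of the 10 was higher without overlap, against 6.72%. Pnpla2 had 69.3, 70.4 and 58.7 FPKM in CON and 82.8, 67.2 and 77.8 in HSD, groups that overlapped, and its log2 fold change was 0.20 (95% interval -0.10 to 0.49). Plin1, Cidec and Lipe varied from library to library, with the lowest Plin1 and Cidec values, 1.44 and 2.63 FPKM, in HS2M, the muscle library with the lowest Adipoq. Lpl was 71.6 ± 9.4 FPKM in CON and 64.3 ± 8.6 in HSD.

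In eWAT, 9 of the 10 genes were lowest in HS3W, the library with epididymal transcripts. Pnpla2 was 657, 606 and 552 FPKM in CON and 890, 297 and 803 in HSD, in the order HS2W, HS3W and HS5W. Plin4 was 479, 574 and 580 FPKM in CON and 829, 270 and 673 in HSD. Lpl was 847, 1132 and 1080 FPKM in CON and 720, 285 and 790 in HSD. For Pnpla2 and Plin4 the HSD libraries other than HS3W lay above the 3 CON libraries, and for Lpl all HSD libraries lay below them.

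When all 6 libraries were fitted, Pnpla2 had a log2 fold change of -0.02 (95% interval -1.11 to 1.08), Plin4 of -0.03 (-1.11 to 1.05) and Lpl of -0.89 (-1.95 to 0.17, adjusted p = 0.35). Without HS3W they were 0.49 for Pnpla2 (0.22 to 0.76, adjusted p = 0.056), 0.46 for Plin4 (0.12 to 0.80, adjusted p = 0.099) and -0.42 for Lpl (-0.79 to -0.06, adjusted p = 0.14). No gene of the 10 was called in either fit, and 1.21% of 13245 genes were called without HS3W. The median log2 fold change of the 10 genes was -0.49 with HS3W and 0.00 without it, against 0.08 and 0.04 over all genes.

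Plin5 was the gene that did not drop in HS3W. It read 4.09, 3.04 and 3.89 FPKM in CON and 4.92, 5.69 and 5.09 in HSD, so each HSD library lay above each CON library, with 96 to 146 fragments behind each value. limma gave a log2 fold change of 0.46 (95% interval 0.13 to 0.80) with adjusted p = 0.21, and 0.41 without HS3W with adjusted p = 0.12. It was the only gene of the 10 higher in HSD without overlap in all 6 libraries, against 16.2% of genes tested. Lpl and Cidec were lower without overlap, against 12.4%. Cidec was 1476, 1593 and 1610 FPKM in CON and 1472, 508 and 1382 in HSD, so 1472 in HS2W lay just below 1476 in CON16W. Its log2 fold change ran from -0.89 to -0.13 when 1 library was left out. Macrophage markers summed to 394 to 511 FPKM in CON eWAT and 186 to 371 in HSD eWAT, also without overlap, and their part in these differences was not tested. Without HS3W, Plin4, Plin5 and Pnpla2 were higher without overlap, against 26.2%, and Lpl and Cidec lower, against 20.5%.

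G0s2 in eWAT was 338, 480 and 494 FPKM in CON and 314, 132 and 394 in HSD, groups that overlapped, and its log2 fold change was -0.76 (95% interval -1.84 to 0.31) or -0.29 without HS3W (-0.78 to 0.19). Lipe, Plin1, Plin2 and Mgll without HS3W lay within 0.07 of 0 on the log2 scale. The interval for Lipe in that fit was -0.14 to 0.24 and that for Plin1 -0.23 to 0.25.

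Since HS3W also had a low adipocyte marker sum, the eWAT values were expressed relative to 12 adipocyte markers that hold none of the 10 genes, an alternative chosen after the values were seen. On this scale Pnpla2 was 576, 488 and 454 in CON and 748, 724 and 676 in HSD, and Plin4 was 420, 463 and 477 in CON and 697, 657 and 566 in HSD. Lpl was 743, 912 and 888 in CON and 605, 694 and 665 in HSD. HS3W then lay between the other HSD libraries for Pnpla2 and Plin4, and for Lpl it was the highest HSD library but still below CON. The log2 fold changes were 0.51 for Pnpla2, 0.49 for Plin4 and -0.37 for Lpl, each with adjusted p = 0.57. The median over all genes was itself 0.57 on this scale, where HS3W was divided by 0.41 and the other libraries by 1.14 to 1.24. Pnpla2 and Plin4 thus lay below the median of all genes. Plin4, Lipe, Plin5 and Pnpla2 were higher without overlap, against 24.8% of genes, and Lpl and Cidec lower, against 2.18%. Mgll and Plin5 in HS3W were above the other libraries on this scale, at 381 against 204 to 222 and at 13.8 against 2.44 to 4.29, in the library whose epididymal transcripts were high, and the part of those transcripts was not tested.

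**Figure D4:**
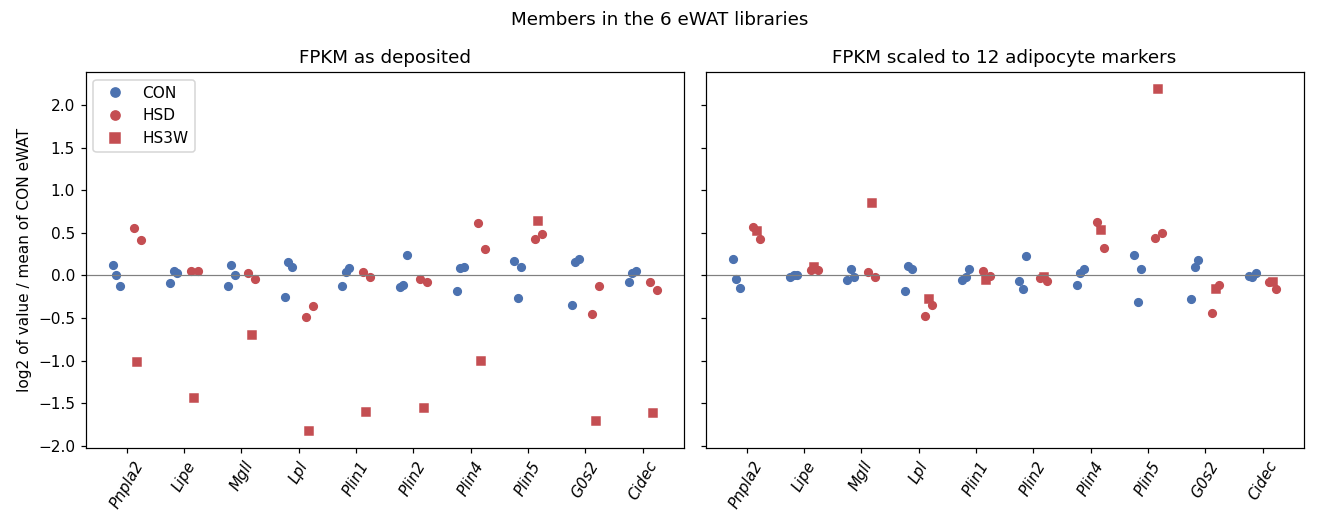
Log2 of each gene's level in the 6 eWAT libraries relative to the mean of CON eWAT, as deposited on the left and scaled to 12 adipocyte markers on the right, with CON in blue, HSD in red and HS3W as a square. As deposited, HS3W is lowest for 9 of the 10 genes, and after scaling the 3 HSD libraries of Pnpla2 and Plin4 lie above and those of Lpl below the CON libraries.

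The perilipin make-up is a ratio within a library, which that scaling leaves as it is. In eWAT, Plin1 gave 45.1% to 46.0% of summed perilipin FPKM in CON and 35.5% to 40.9% in HSD, and Plin4 44.0% to 46.2% in CON and 51.0% to 55.2% in HSD. Plin4 over Plin1 was 0.96, 1.02 and 0.99 in CON and 1.47, 1.49 and 1.25 in HSD, and HS3W was not apart from the other HSD libraries. This ratio was chosen after its values were seen. A two-sided exact permutation test gave p = 0.1, the smallest that 3 libraries against 3 allow, or 0.22 after Benjamini-Hochberg adjustment over the 13 ratio comparisons computed. The ratio to Plin1 was higher in HSD without overlap for 20.8% of genes in eWAT. On mm10, Plin4 and Plin5 lie near each other on the minus strand of chromosome 17, at 56100591 to 56109803 and 56111601 to 56117596.

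The lipase to inhibitor ratio, Pnpla2 over G0s2, was likewise chosen after its values were seen. On mm10, Pnpla2 lies on the plus strand of chromosome 7 at 141455198 to 141460743 and G0s2 on the minus strand of chromosome 1 at 193272161 to 193273217. In eWAT it was 1.94, 1.26 and 1.12 in CON and 2.84, 2.25 and 2.04 in HSD, with HS3W in the middle. In muscle it was 4.32, 2.44 and 2.39 in CON and 16.8, 5.13 and 9.03 in HSD. In both tissues each HSD library exceeded each CON library, by 1.68-fold in eWAT and 3.14-fold in muscle between geometric means. The ratio of a gene to G0s2 was higher in HSD without overlap for 21.7% of genes in eWAT and for 65.3% in muscle, so in muscle the ratio carried the G0s2 values themselves. In liver the ratio was 0.043, 0.091 and 0.024 in CON and 0.033, 0.032 and 0.021 in HSD, and the groups overlapped. The same exact permutation test gave p = 0.1 in eWAT and in muscle, the smallest possible, and p = 0.4 in liver, which adjusted to 0.22, 0.22 and 0.65.

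**Figure D5:**
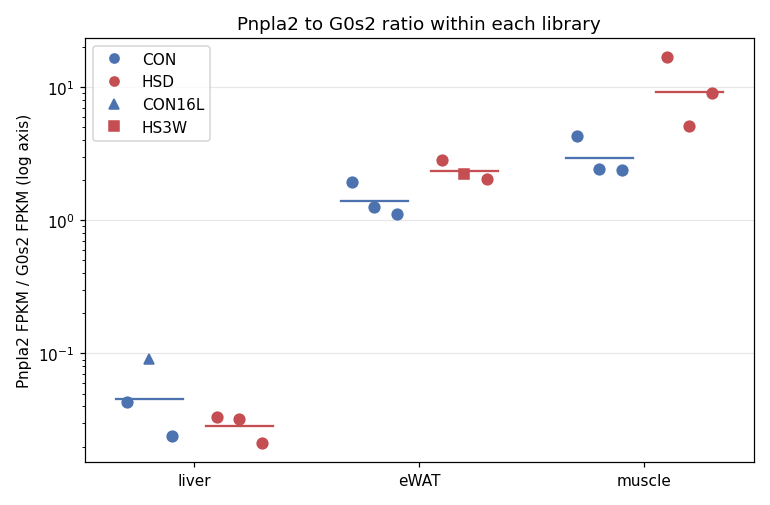
Ratio of Pnpla2 FPKM to G0s2 FPKM in each library on a log axis, with CON in blue and HSD in red, CON16L as a triangle, HS3W as a square and geometric means as lines. All HSD libraries lie above all CON libraries in eWAT and in muscle, and the ratio stays under 0.1 in every liver library.

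In liver, G0s2 was the highest of the 10 genes by FPKM. It was 205, 303 and 389 FPKM in CON and 590, 469 and 537 in HSD, and all HSD values lay above all CON values. The mean was 299 ± 92 FPKM in CON and 532 ± 60 in HSD (SD, n = 3). The log2 fold change was 0.87 (95% interval -0.12 to 1.87, adjusted p = 0.76), and it was 0.32 when the mitochondrially encoded genes were left out, a rescaling that moved the median of all genes from 0.13 to -0.37. The library lowest in G0s2, CON14L, had 60.9% of its fragments on those genes. Lipe was 1.11, 1.52 and 1.06 FPKM in CON and 2.15, 1.70 and 2.05 in HSD, again without overlap, with 50 to 132 fragments behind each value. limma put the log2 fold change at 0.52 (95% interval 0.03 to 1.01, adjusted p = 0.76), and 0.11 without the mitochondrially encoded genes. G0s2 and Lipe were the 2 of 9 tested genes higher without overlap, against 8.62% of all genes, and none was lower, against 3.47%.

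Plin2 in liver split the HSD group. It stood at 18.6, 20.2 and 19.3 FPKM in CON and at 55.1, 44.1 and 19.7 in HSD, where the low value came from HS5L. HS2L and HS4L had 16.3% and 15.4% of their fragments on mitochondrially encoded genes and HS5L had 44.4%. The log2 fold change of 0.90 (95% interval -0.10 to 1.89, adjusted p = 0.76) was 0.35 with those genes left out. Plin5 followed the same libraries, at 17.7, 14.6 and 9.36 FPKM in HSD against 6.97, 15.4 and 7.12 in CON. Its log2 fold change was 0.53 with the mitochondrially encoded genes and -0.0013 without them. That rescaling also moved the median of all genes, from 0.13 to -0.37, so both shifts have to be read against it. Plin4 was 3.18, 5.43 and 2.26 FPKM in CON and 1.71, 0.74 and 2.58 in HSD, with a log2 fold change of -0.94 (95% interval -1.90 to 0.01, adjusted p = 0.76), or -0.64 without CON16L. Macrophage markers summed to 31.5 to 41.6 FPKM in CON liver and 18.5 to 25.2 in HSD liver, and their part in the liver differences was not tested. The part of the mitochondrial share in these differences, beyond the rescaling, was not tested.

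Lpl in liver turned with CON16L. Its log2 fold change was -1.05 with all 6 libraries (95% interval -3.91 to 1.81) and 0.55 without CON16L (-0.39 to 1.48). Without that library, Lipe, G0s2, Plin5, Pnpla2 and Plin2 were higher in HSD without overlap, 5 of 9 genes, against 19.8% of genes, and none was lower, against 5.9%. No gene of the 10 was called in that fit either, which called 0.00998% of 10018 genes, and 2 of 9 had an unadjusted p under 0.05 against 911 genes in all. With the libraries the study used, which also leave out HS5L, 0 of the 9 were called and 6 had an unadjusted p under 0.05, against 3164 of 9970 genes. The median log2 fold change of the 9 genes was 0.19 with all libraries, 0.63 without CON16L and 0.89 with the study's libraries, and -0.36 with all libraries when the mitochondrially encoded genes were left out, against -0.37 over all genes in that setting.

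Whether the diet difference itself differed between tissues was tested in a fit over all 18 libraries. None of the 10 genes passed in the eWAT against liver, eWAT against muscle or muscle against liver contrasts, where 0.758%, 0% and 0.0612% of 13067 genes passed and 1792, 1045 and 1039 had an unadjusted p under 0.05. limma voom called 0 of the 10 in each contrast as well. Among the 10 genes, the largest difference was that of G0s2, higher in the 3 HSD livers and lower in the 3 HSD muscles. The difference of its diet effects, muscle minus liver, was -2.27 on the log2 scale (95% interval -3.51 to -1.02, unadjusted p = 0.0015, adjusted p = 0.27), and eWAT minus liver was -1.63 (adjusted p = 0.24), or -1.16 without HS3W (adjusted p = 0.35). Plin2 had -1.45 for eWAT minus liver (adjusted p = 0.24), or -0.96 without HS3W (adjusted p = 0.33), and -1.07 for muscle minus liver (adjusted p = 0.65). Plin4 had 1.14 for muscle minus liver (adjusted p = 0.67), or 0.84 without CON16L. These contrasts share the liver libraries.

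Other genes of the same pathways were taken from 4 lists. Signalling upstream of the lipases was covered by 17 genes from catecholamine, adenosine and natriuretic peptide receptors to protein kinases A and G, of which 9 could be tested in liver, 17 in eWAT and 13 in muscle. None was called, and the list medians of 0.31, 0.06 and -0.14 on the log2 scale stood beside 0.13, 0.08 and -0.06 over all genes. Prkaca, a catalytic subunit of protein kinase A, was 63.1, 84.4 and 64.6 FPKM in CON eWAT and 43.8, 33.3 and 48.5 in HSD eWAT. Its log2 fold change was -0.75 (adjusted p = 0.17), and all HSD values lay below all CON values. Prkacb, another catalytic subunit, was 14.3, 12.8 and 10.9 FPKM in CON eWAT and 11.85, 22.1 and 12.2 in HSD eWAT, groups that overlapped. Without HS3W, 7 of the 17 genes had an unadjusted p under 0.05 in eWAT, and so had 3674 of all 13245 genes. Among them was Adrb3, the main beta-adrenergic receptor of fat, named here after its values were seen, at 331, 324 and 355 FPKM in CON and 475 in HS2W, 205 in HS3W and 519 in HS5W. Its log2 fold change without HS3W was 0.56 (adjusted p = 0.029), under 2-fold.

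Partners of the lipases and other neutral lipid hydrolases made up 13 genes, of which 9, 13 and 11 were tested in liver, eWAT and muscle with no call. Pnpla3, a relative of Pnpla2, read 217, 201 and 332 FPKM in CON eWAT and 104, 38.7 and 137 in HSD eWAT, and 4.09, 4.53 and 4.68 in CON muscle and 0.82, 2.74 and 2.45 in HSD muscle. All HSD values lay below all CON values in both tissues. The log2 fold change was -1.57 in eWAT (adjusted p = 0.23) and -1.08 in muscle (adjusted p = 0.11), and in muscle the fit with the replicate block called it (adjusted p = 0.041). Ces1f, a carboxylesterase, was called without HS3W in eWAT, with 45.1, 35.2 and 36.9 FPKM in CON and 87.5 and 89.8 in HSD (1.18, adjusted p = 0.021), and stood at 25.0 in HS3W. Ces1d, a carboxylesterase that hydrolyses triglyceride, had a log2 fold change of 1.42 in liver (adjusted p = 0.76). The list medians were 0.54 in liver, -0.03 in eWAT and -0.06 in muscle.

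Of 13 other lipid droplet proteins, 12, 10 and 10 were tested in liver, eWAT and muscle, with no call and medians of 0.43, -0.21 and -0.06. Mettl7b, a droplet and endoplasmic reticulum protein, was 7.40, 9.55 and 7.82 FPKM in CON eWAT and 3.28, 1.98 and 2.73 in HSD eWAT. Its log2 fold change was -1.48 (adjusted p = 0.091), and without HS3W it was called at -1.32 (adjusted p = 0.021). In liver, Mettl7b ranged from 207 to 694 FPKM, and the hepatocyte marker sum was also lower in HSD eWAT, at 9.25 to 18.0 FPKM against 132 to 371 in CON, and its part in this difference was not tested. Hsd17b13, a liver droplet enzyme, was 37.9, 53.9 and 42.6 FPKM in CON liver and 126, 154 and 60.6 in HSD liver (1.25, adjusted p = 0.76).

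Among 10 partners of lipoprotein lipase, 9, 9 and 6 were tested in liver, eWAT and muscle, with no call and medians of 0.64, -0.43 and 0.11. Angptl8, an inhibitor of the enzyme, was 7.71, 33.2 and 27.9 FPKM in CON eWAT and 7.12, 3.38 and 12.6 in HSD eWAT (-1.45, adjusted p = 0.34), groups that overlapped. Apoa5, an activator made in liver, was at 0.69, 1.88 and 0.62 FPKM in CON eWAT and at 0.15, 0 and 0 in HSD eWAT (-1.43, adjusted p = 0.20), again beside the hepatocyte markers that were lower there. The list medians are descriptions.

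Lastly, the genes most like each member over the 18 libraries were listed by Pearson r of log2(FPKM + 0.5), as a description of patterns that are mostly differences between tissues. Plin1 was closest to Aoc3 (r = 0.998), Retn and Prkd1, Cidec to Trarg1 (r = 0.998), Dram1 and Prkar2b, and Lipe to Ankef1 (r = 0.996), Trarg1 and Cdsn. Lpl was closest to the fatty acid transporter gene Cd36 (r = 0.993), Cav1 and Rflnb. G0s2 had Hp (r = 0.986), Slc25a10 and H2-K1 as its nearest genes, and Plin5, the least matched of the 10, Tlcd4 (r = 0.933), Slc25a34 and Mreg. Over the 6 eWAT libraries alone, where HS3W dominates the spread, Plin1 and Lipe both had Tspo and Sucnr1 among their 3 nearest genes, and the nearest gene was Ech1 for Pnpla2, Lpin1 for Plin4 and Parp3 for Lpl.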

How the data were processed

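RNA of liver, WAT and muscle had been sequenced after ribosomal RNA depletion as stranded libraries, and per the study's methods the authors trimmed reads, aligned them with HISAT2 to mm10 and computed the deposited FPKM values with cuffdiff on Ensembl genes. The submitters' processing notes also name HTSeq 0.9.1 and mm9. FPKM is relative to the fragments of the library, so a large share of mitochondrial or other transcripts lowers all other values of a library. Groups followed the sample labels. The study's own comparisons left out 3 of the 18 libraries, CON16L and HS5L of liver and HS5W of eWAT, and kept HS3W, and all 18 were used here.

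Values were analysed in R 4.3.3 with limma 3.58.1 on log2(FPKM + 0.5) with a trended prior, for genes with a mean of at least 0.5 FPKM in the fitted libraries, each tissue alone for diet, the 9 CON libraries for tissue, and all 18 for the difference of diet effects. A gene was called at a Benjamini-Hochberg adjusted p under 0.05 over all genes tested and an absolute log2 difference of at least 1. Fold changes on this scale understate changes of low genes. The thresholds are those of the study, whose count-based test was not run. limma was used on the deposited FPKM, and limma voom on the fragments recovered from it. Whole fragments were recovered from FPKM and exon lengths of GENCODE M21, to within 0.05 of a whole number, for 99.74% of 18822 genes above 0, which gave the depth. The scripts were checked on simulated data. The limma p-values rest on the spread between the 3 mice within each group, together with the prior from all genes. In the fits over several tissues that spread is pooled, and libraries of the same mouse were treated as independent. With mouse as a random block, 9, 10 and 7 of the 10 genes were called for eWAT against liver, eWAT against muscle and muscle against liver in CON. In that setting 0 were called in each contrast of diet effects.

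Replicate numbers of the titles were checked for pairing. In muscle, same-numbered CON and HSD libraries correlated in their deviations from the group means by 0.38, 0.18 and 0.18, so the block is given beside muscle results. CON 3 and HSD 2, which do not share a number, also correlated by 0.18, and the other unmatched pairs by -0.35 to -0.079. The pairing rests on the numbers in the labels and this correlation, and paired libraries come from different mice. Alternatives were the pseudocount, the filter, scaling, omission of mitochondrially encoded genes, limma voom on recovered fragments, each library left out, the study's libraries and a mouse block. For diet, another was 1 fit over all tissues. Scaling to adipocyte markers and the gene ratios were chosen after the data were seen.

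The 10 genes, the lists and the markers were chosen with earlier results of these data known. All 10 genes are named, and of each list the genes called in a diet comparison or, where fewer than 2, those with the largest difference. Adrb3, Prkacb and Plin3 were added outside this rule. A gene that the rule names is not reported here.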

Additional observations from a re-analysis of the deposited data

Results flagged for a closer look

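G0s2 was singled out because every HSD liver lay above every CON liver while every HSD muscle lay below every CON muscle. The difference of its diet effects, muscle minus liver, was -2.27 on the log2 scale by the interaction contrast of limma over all 18 libraries (unadjusted p = 0.0015, adjusted p = 0.27), which did not pass the correction. Leaving out each library in turn gave -2.58 to -1.92 with an adjusted p of at least 0.10.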

How the results depend on the processing

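Of the alternatives to single values, 1019 kept direction and side of the threshold, 38 changed direction, 11 passed the threshold anew and 5 no longer passed. Of the counts of called genes, 175 stayed within 1.5 times and 5 moved. In muscle, limma voom and the replicate block each called 1 of the 10 genes, G0s2. With the libraries the study used (without CON16L, HS5L and HS5W), 3 genes passed in the eWAT against liver contrast of diet effects (G0s2, Lpl and Plin2), where 2455 of all 13149 genes passed, and 2 in the muscle against liver contrast (G0s2 and Plin2), where 1286 passed. Leaving out 1 library gave 0 to 1 genes in the eWAT against liver contrast, with 1 without HS5L, where 544 of 13119 genes passed, 0 in each diet comparison and in the other 2 contrasts, and 8 to 9, 10 and 7 to 8 between control tissues. Without the mitochondrially encoded genes, liver fold changes turned to -0.0013 for Plin5, -0.36 for Pnpla2 and -0.36 for Mgll (log2), beside an all-gene median of -0.37, and the study's libraries gave 0.94 for Lpl and 0.35 for Cidec. Scaling eWAT to adipocyte markers gave 0.49 for Plin4, 0.076 for Lipe, 0.51 for Pnpla2 and 0.29 for Mgll, beside an all-gene median of 0.57. Median ratios and omission of mitochondrial genes turned G0s2 between control eWAT and liver to -1.09 and -0.54, and Plin5 between control muscle and liver to -0.54 and -0.66. Where not given by the scaling itself, the cause was not tested.

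Leaving out 1 library gave ranges across 0 for Lpl (-1.91 to 0.55), Pnpla2 (-0.10 to 0.70), Cidec (-0.27 to 0.15) and Mgll (-0.078 to 0.33) in liver. In eWAT these were Plin4 (-0.35 to 0.46), Lipe (-0.69 to 0.052), Pnpla2 (-0.30 to 0.49) and Plin1 (-0.81 to 0.0079). In muscle they were Plin4 (-0.031 to 0.32), Cidec (-0.50 to 0.33), Plin1 (-0.53 to 0.12) and Mgll (-0.055 to 0.24), and between control muscle and liver Plin5 (-0.12 to 0.43).

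Over all genes, 160 were called in eWAT without HS3W against 0 with it, and 35 in liver with the study's libraries against 0. These counts are from fits of 1 tissue. With all 18 libraries in 1 fit, the diet comparison called 161 of 13067 genes in eWAT, 41 in liver and 5 in muscle. None of the 10 genes was among them. In muscle, 35 genes were called, 68 by limma voom, 54 with the replicate block and 58 without the mitochondrially encoded genes. Median-ratio scaling changed the split between control tissues from 7851 higher and 917 lower to 2555 and 2621 for eWAT against liver, from 5924 and 1009 to 2423 and 2281 for eWAT against muscle, and from 4436 and 1893 to 3092 and 2934 for muscle against liver. The diet contrast between eWAT and liver called 99 genes with all libraries and 11 by limma voom, and that between muscle and liver 8 and 2. In liver and eWAT, same-numbered libraries correlated by -0.47, 0.40 and -0.21 and by -0.20, 0.06 and 0.41, so they share only a number, and the replicate block called 0 genes in either tissue. With 3 mice a group, the intervals give the range of differences compatible with the data, and a gene that was not called may still differ within its interval.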
